A study of Mus musculus with 30 samples.

Results

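The endothelial and pericyte genes described here are Pecam1, Kdr, Flt1, Tek, Tie1, Cldn5 and Sox17, which mark the cells that line blood vessels, and Rgs5, Pdgfrb and Cspg4, which mark the pericytes wrapped around them. They were chosen by name as vascular markers, and all 10 were found among the 38720 gene symbols of both deposited tables. Poly(A) RNA was measured in cells of newborn mouse retina (postnatal day 0), dissociated with papain and split with magnetic beads against CD90 into bead-selected cells, labelled retinal ganglion cells (RGC), and the remaining cells, labelled non-RGC. The groups used here are mutant non-RGC, mutant RGC and wild-type (WT) RGC, with 3 libraries each. Mutant animals carry Math5Cre, a Cre recombinase under control of Math5 (Atoh7), a gene of retinal progenitors that give rise to ganglion cells, together with Ezh2f/f, both copies of Ezh2 floxed, either alone or with G9af/+, 1 floxed copy of G9a (Ehmt2). The tables do not state which of these 2 mutant genotypes they hold, and the series' design text writes G9a+/- for the second. WT non-RGC libraries were not analysed here. The tables were read back to whole reads per library. Libraries are numbered by size factor within each group and cannot be tied to single samples, and the labels do not say whether samples of a group came from separate animals, so each p is relative to the variation among these libraries, which may be technical only.

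As background, blood vessels are built by endothelial cells that follow vascular endothelial growth factor (VEGF) through the receptor tyrosine kinases encoded by Kdr and Flt1, and are stabilised by angiopoietins acting on the receptor encoded by Tek. Endothelial cells recruit pericytes by releasing platelet-derived growth factor B, which binds the receptor encoded by Pdgfrb. In the mouse, vessels spread over the inner retina from the optic nerve head after birth, while the hyaloid vessels of the vitreous are still present. Endothelial cells and pericytes do not arise from the retinal neuroepithelium in which Math5 is expressed. Kdr is also known to be expressed by retinal progenitor cells of the mouse, outside the vessels.

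Each library held between 10551825 and 12259494 reads assigned to genes, and between 19864 and 21660 genes were detected per library. Thy1, which encodes CD90, had 209, 351 and 10.3 normalised counts in the mutant non-RGC libraries, 964, 1501 and 1425 in the mutant RGC libraries and 2321, 2442 and 2073 in the WT RGC libraries. Ezh2 was higher, not lower, in the RGC libraries labelled mutant than in those labelled WT (log2 fold change 0.58, adjusted p = 0.0292, limma), and Ehmt2 was lower (log2 fold change -0.43, adjusted p = 0.0332, limma). The position of the floxed exons was not known here, and reads from the rest of the gene would still be counted, so the level of Ezh2 checks neither the deletion nor the label, and "mutant" below means only that a library carries that label. Mutant RGC library 1 stood apart from its group. In a chi-square comparison of read counts, where sampling noise alone gives about 1 per gene, it differed from mutant RGC libraries 2 and 3 by a mean of 20.2 and 18.2, against 1.89 between libraries 2 and 3. WT RGC library 3 differed in the same way from WT RGC libraries 1 and 2, by 17.9 and 21.1, against 4.97 between libraries 1 and 2. Mutant non-RGC library 3 stood apart too, by 12.02 and 13.3 from mutant non-RGC libraries 1 and 2, against 3.72 between those libraries, and it had the lowest Thy1 of the 9. Values without mutant RGC library 1 stand beside each member except Sox17, which was too low to be tested without it. Those without either of the other libraries follow the counts of members called.

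Of the 10 members, 7 had a promoter in the RefSeq table (GRCm38.p6, the assembly of mm10), and 4 are shown because they stand on both sides of the split described below: Flt1 and Tie1 varied with the other vascular genes from library to library, and Kdr and Cldn5 did not. Each line gives the 250 bases before the start that the promoter table uses for the gene, 5′ to 3′ on the gene's strand. For Flt1 and Kdr this start lies inside the gene's full span given below, so their windows fall within that span. Capitals mark every match to GGAAG on either strand (GGAAG or CTTCC) and to TGACGTCA. GGAAG contains GGAA, the core of many sites bound by ETS-family transcription factors, and other occurrences of GGAA were neither marked nor counted. TGACGTCA is the cyclic AMP response element, which reads the same on both strands. No match to 1 motif overlapped a match to the other.
Flt1 (chr5:147726012-147726261, minus strand): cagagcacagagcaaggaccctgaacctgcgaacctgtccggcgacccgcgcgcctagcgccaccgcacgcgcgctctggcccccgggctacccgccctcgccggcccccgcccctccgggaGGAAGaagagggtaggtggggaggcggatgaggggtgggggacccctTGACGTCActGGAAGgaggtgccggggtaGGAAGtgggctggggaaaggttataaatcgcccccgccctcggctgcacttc
Tie1 (chr4:118489850-118490099, minus strand): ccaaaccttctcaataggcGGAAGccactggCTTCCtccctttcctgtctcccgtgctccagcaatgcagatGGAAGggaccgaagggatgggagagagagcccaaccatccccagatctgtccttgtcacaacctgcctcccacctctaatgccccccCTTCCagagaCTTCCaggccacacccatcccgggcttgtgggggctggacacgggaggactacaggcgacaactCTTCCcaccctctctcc
Kdr (chr5:75978456-75978705, minus strand): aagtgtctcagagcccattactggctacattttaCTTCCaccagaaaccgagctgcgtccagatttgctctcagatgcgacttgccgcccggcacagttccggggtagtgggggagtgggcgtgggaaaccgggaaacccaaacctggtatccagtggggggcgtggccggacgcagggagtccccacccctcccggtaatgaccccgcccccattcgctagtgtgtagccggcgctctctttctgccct
Cldn5 (chr16:18776597-18776846, plus strand): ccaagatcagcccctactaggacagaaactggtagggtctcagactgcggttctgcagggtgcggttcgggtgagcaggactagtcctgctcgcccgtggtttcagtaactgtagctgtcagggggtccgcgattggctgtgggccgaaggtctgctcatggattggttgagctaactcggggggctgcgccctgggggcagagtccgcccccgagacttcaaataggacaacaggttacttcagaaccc
Tie1 held 6 matches to GGAAG, Flt1 held 3, Kdr held 1 and Cldn5 held 0. Of the 32851 promoters of the same length, 64.1% held at least 1 match and 3.39% held 4 or more, so 1 match is common and the 6 of Tie1 are not. The promoters of Tek, Rgs5 and Cspg4 also held 0, although these genes varied with Tie1 and Flt1. TGACGTCA was found in the Flt1 promoter alone of the 7 and in 1.55% of all promoters. These are matches of letters and not measured binding.

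Kdr was the only member that passed the test between genotypes, and it was higher in RGC libraries labelled mutant. Kdr (chr5:75932827-75979072) encodes VEGF receptor 2, the main signalling receptor for VEGF-A. It had 5352, 5221 and 6122 normalised counts in the mutant non-RGC libraries, 5719, 4663 and 4736 in the mutant RGC libraries and 3152, 3329 and 4299.8 in the WT RGC libraries. Every mutant RGC library lay above every WT RGC library, whereas the mutant non-RGC and mutant RGC libraries overlapped. Scaled within the table of genotypes, Kdr averaged 5107 ± 485 normalised counts in mutant RGC and 3563 ± 625 in WT RGC (SD, n = 3 libraries each). The log2 fold change of mutant RGC over WT RGC was 0.53 (SE 0.14, adjusted p = 0.0364 over all genes, limma on log2(value + 1)). The authors' deposited table gives a ratio of 1.43 and an adjusted p of 0.00861 for the same comparison. A call for higher expression was made for 13.7% of the 15276 genes tested, and 26.2% had all mutant RGC libraries above all WT RGC libraries, so neither sets Kdr apart from many other genes. Without mutant RGC library 1 the log2 fold change was 0.45 and the adjusted p 0.0734 (limma), so the call was lost. It was also lost when any of mutant RGC library 2, mutant RGC library 3, WT RGC library 1 or WT RGC library 2 was left out, with adjusted p between 0.0765 and 0.134 (limma), and it held without WT RGC library 3, with a log2 fold change of 0.67 and an adjusted p of 0.00542.

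Between the mutant fractions Kdr differed little. The log2 fold change of mutant non-RGC over mutant RGC was 0.14 (SE 0.09, adjusted p = 0.323, limma), and 0.23 without mutant RGC library 1 (adjusted p = 0.0696, limma). The order of the group means was therefore mutant non-RGC, mutant RGC and WT RGC, of which the first 2 did not differ beyond their spread.

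Flt1 (chr5:147561604-147726438) encodes VEGF receptor 1, which binds VEGF-A tightly and signals weakly. Its levels were 90.4, 104 and 35.0 normalised counts in the mutant non-RGC libraries, 286, 56.0 and 84.7 in the mutant RGC libraries and 37.3, 85.3 and 35.1 in the WT RGC libraries. Mutant RGC library 1 lay above all others, and the ranges of the 3 groups overlapped. Its log2 fold change of mutant RGC over WT RGC, 1.22, was the largest of the members, but the SE was 0.63 and its adjusted p 0.178 (limma). It fell to 0.56 (adjusted p = 0.377, limma) without mutant RGC library 1. The authors' deposited table gives a ratio of 2.74 with an adjusted p of 0.596. For mutant non-RGC over mutant RGC the log2 fold change was -0.68 (SE 0.64, adjusted p = 0.519, limma), and -0.01 without that library.

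**Figure D1:**
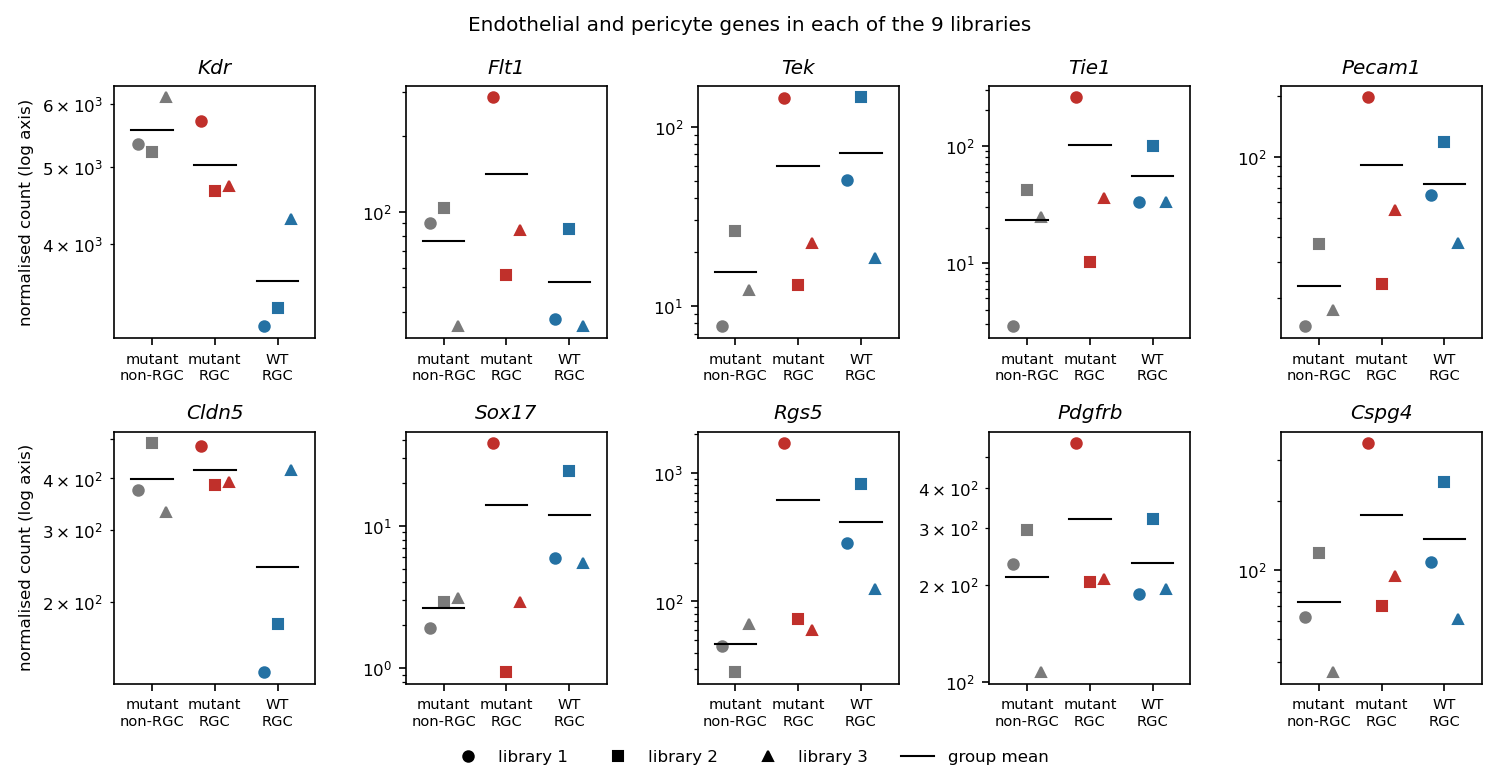
Normalised counts of the 10 genes (vertical log axis, own range in each panel, 9-library scale) in the mutant non-RGC (grey), mutant RGC (red) and WT RGC (blue) libraries; shapes give the library number and lines the group mean. Mutant RGC library 1 is the highest mutant RGC library in all 10 panels and WT RGC library 2 the highest WT RGC library in all but those of Kdr and Cldn5. Kdr has all mutant RGC libraries above all WT RGC libraries.

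Tek, Tie1 and Pecam1 showed 1 high library in each RGC group and no difference between groups that exceeded the spread. Tek (chr4:94739086-94874976) encodes TIE2, the receptor for angiopoietins. Its levels were 7.70, 26.1 and 12.3 normalised counts in the mutant non-RGC libraries, 144, 13.1 and 22.4 in the mutant RGC libraries and 50.1, 145 and 18.6 in the WT RGC libraries. The highest mutant RGC library and the highest WT RGC library were nearly level, and the other libraries of each group lay well below them. Tek had a log2 fold change of -0.51 for mutant RGC over WT RGC (SE 1.02, adjusted p = 0.735, limma) and -1.31 for mutant non-RGC over mutant RGC (SE 0.86, adjusted p = 0.349, limma). Leaving out mutant RGC library 1 gave -1.49 and -0.32, neither past the threshold.

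Tie1 (chr4:118471191-118489849) encodes the related receptor TIE1, which modulates TIE2 signalling. It had 2.89, 41.6 and 24.7 normalised counts in the mutant non-RGC libraries, 257, 10.3 and 36.0 in the mutant RGC libraries and 33.4, 99.99 and 32.9 in the WT RGC libraries. Its mean over mutant RGC, 101 ± 136 (SD, n = 3), therefore had an SD larger than the mean. The log2 fold change of mutant RGC over WT RGC was -0.01 (SE 1.09, adjusted p = 0.995, limma), while the ratio of means in the authors' deposited table was 1.84 (adjusted p = 1). The first compares means of log values and the second means of the values themselves. Without mutant RGC library 1 the log2 fold change was -1.21 (adjusted p = 0.237, limma). For mutant non-RGC over mutant RGC it was -1.56 with all libraries (SE 1.26, adjusted p = 0.449, limma) and -0.35 without that library.

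Pecam1 (chr11:106654213-106715281) encodes the adhesion molecule CD31 of endothelial junctions. The mutant non-RGC libraries had 14.4, 36.8 and 17.5 normalised counts, the mutant RGC libraries 197, 23.3 and 54.5, and the WT RGC libraries 64.9, 118 and 37.3. Mutant RGC library 1 was again the highest and WT RGC library 2 the next. Pecam1 had a log2 fold change of -0.02 for mutant RGC over WT RGC (SE 0.77, adjusted p = 0.986, limma) and -1.55 for mutant non-RGC over mutant RGC (SE 0.73, adjusted p = 0.199, limma). Without mutant RGC library 1 these were -0.81 and -0.75, also short of the threshold.

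Cldn5 and Sox17 behaved unlike each other. Cldn5 (chr16:18776847-18778262) encodes claudin-5, a tight-junction protein of the blood-retina barrier. It had 375, 487 and 331 normalised counts in the mutant non-RGC libraries, 480.2, 385 and 392 in the mutant RGC libraries and 135, 177 and 419.7 in the WT RGC libraries. WT RGC libraries 1 and 2 were the lowest of the 9, and WT RGC library 3 lay among the mutant libraries. For mutant RGC over WT RGC the log2 fold change was 0.98 (SE 0.40, adjusted p = 0.101, limma), and the authors' deposited table gives a ratio of 1.76 (adjusted p = 0.189). Leaving out WT RGC library 3 gave 1.47 and an adjusted p of 0.00272 (limma), so this library alone decided the call, and leaving out mutant RGC library 1 gave 0.90 (adjusted p = 0.201, limma). Between the fractions the log2 fold change of mutant non-RGC over mutant RGC was -0.09 (SE 0.16, adjusted p = 0.747, limma), and 0.0009 without mutant RGC library 1 (adjusted p = 0.997, limma).

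Sox17 (chr1:4490928-4497426) encodes a transcription factor of arterial endothelium. It was scarce, with 1.92, 2.91 and 3.09 normalised counts in the mutant non-RGC libraries, 37.9, 0.933 and 2.92 in the mutant RGC libraries and 5.90, 24.2 and 5.48 in the WT RGC libraries. Its signal therefore came mostly from mutant RGC library 1 and WT RGC library 2. The log2 fold change of mutant RGC over WT RGC was -0.62 (SE 1.15, adjusted p = 0.710, limma). Without mutant RGC library 1 its mean was under the minimum of 10, so it was tested between genotypes only because of that library, which held 41 reads against 1 and 3 in mutant RGC libraries 2 and 3. In the comparison of fractions its mean of 8.50 normalised counts fell under the minimum of 10, and it was not tested.

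The 3 pericyte genes repeated the pattern of Tek, Tie1 and Pecam1. Rgs5 (chr1:169655501-169695813) encodes a regulator of G protein signalling that is abundant in pericytes. It had 45.2, 28.1 and 66.8 normalised counts in the mutant non-RGC libraries, 1701, 73.7 and 60.4 in the mutant RGC libraries and 286, 824 and 126 in the WT RGC libraries. Mutant RGC libraries 2 and 3 lay below all 3 WT RGC libraries and mutant RGC library 1 above them. The log2 fold change of mutant RGC over WT RGC was -0.61 (SE 1.33, adjusted p = 0.752, limma) with all libraries and -2.15 (SE 0.74, adjusted p = 0.0895, limma) without mutant RGC library 1, short of the threshold both times. For mutant non-RGC over mutant RGC it was -2.14 (SE 1.17, adjusted p = 0.262, limma), and -0.60 (adjusted p = 0.289, limma) without that library.

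Pdgfrb encodes the receptor through which platelet-derived growth factor B holds pericytes on vessels. Its levels were 232, 295 and 107 normalised counts in the mutant non-RGC libraries, 549.6, 204 and 208 in the mutant RGC libraries and 188, 320.0 and 194 in the WT RGC libraries. The groups overlapped, and 7 of the 9 libraries lay between 107 and 295 normalised counts. Pdgfrb had a log2 fold change of 0.37 for mutant RGC over WT RGC (SE 0.41, adjusted p = 0.522, limma) and -0.56 for mutant non-RGC over mutant RGC (SE 0.48, adjusted p = 0.477, limma). These moved to -0.08 and -0.10 without mutant RGC library 1.

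Cspg4 (chr9:56865104-56899870) encodes the proteoglycan NG2, found on pericytes and on oligodendrocyte precursors. Its levels were 62.5, 119 and 36.0 normalised counts in the mutant non-RGC libraries, 354, 70.0 and 94.4 in the mutant RGC libraries and 108, 241 and 61.4 in the WT RGC libraries. Here too mutant RGC library 1 and WT RGC library 2 were the highest. Cspg4 had a log2 fold change of 0.22 for mutant RGC over WT RGC (SE 0.70, adjusted p = 0.838, limma) and -1.03 for mutant non-RGC over mutant RGC (SE 0.65, adjusted p = 0.325, limma). The same library left out, they were -0.47 and -0.34.

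Counted together, 1 of the 10 members was called between genotypes, Kdr, against 26% of all 15276 genes tested, and the authors' deposited table also called Kdr alone, against 11.9% of 25338 genes. Its groups were the only ones that did not overlap, against 51.1% of all genes, 26.2% with mutant RGC higher and 24.9% with it lower. Without mutant RGC library 1, 0 of 9 members tested were called by limma, 2 had an unadjusted p under 0.05, and 15% of all genes were called. With all libraries 3971 genes were called between genotypes. That number was 3 to 9 when mutant RGC library 2 or 3 or WT RGC library 1 or 2 was left out. It was 6478 without WT RGC library 3, so counts of calls from that fit stand beside a larger number over all genes. This bears on every call between genotypes given below. Of the log2 fold changes 5 were above 0 and 5 below, with a median of 0.10 over the members and 0.00 over all genes. Between the mutant fractions limma called 0 of the 9 members tested, against 17.1% of 15178 genes, 5.07% higher and 12% lower in mutant non-RGC, and 0 had an unadjusted p under 0.05. Voom and the authors' deposited table, in which 6.47% of 25252 genes were called, also called 0. None of the 9 had groups that did not overlap, against 37.7% of all genes, 17.1% with mutant non-RGC higher and 20.6% with it lower. Leaving out mutant RGC library 1 raised the share of all genes called to 22.1%, with 0 members called by limma and 1 at an unadjusted p under 0.05. Of the 9 log2 fold changes, 8 were below 0, with a median of -1.03 over the members and 0.01 over all genes, and without mutant RGC library 1 the median of the members was -0.32. The members were measured with far less precision than most genes: their median SE was 0.74 on the log2 scale between genotypes, against 0.14 over all genes, and 0.65 between fractions, against 0.12. The 2 comparisons share the mutant RGC libraries and are not independent.

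The other libraries that stood apart moved several members. Leaving out WT RGC library 3 gave log2 fold changes of mutant RGC over WT RGC of -0.42 for Pecam1, -1.22 for Tek, -0.27 for Tie1, -0.96 for Sox17, -1.26 for Rgs5 and -0.24 for Cspg4, with adjusted p between 0.398 for Tek and 0.888 for Tie1 (limma). Flt1 (1.00) and Pdgfrb (0.26) stayed above 0 and were not called, and Kdr and Cldn5 were called. Leaving out mutant non-RGC library 3 gave log2 fold changes of mutant non-RGC over mutant RGC of -1.41 for Pecam1, -1.24 for Tek, -1.89 for Tie1, -2.43 for Rgs5 and -0.62 for Cspg4. It brought the others nearer to 0, at -0.19 for Flt1, -0.13 for Pdgfrb, 0.08 for Kdr and 0.037 for Cldn5, and 0 of the 9 were called by limma. For all the gene lists described below, limma called 0 genes between genotypes when mutant RGC library 2 or 3 or WT RGC library 1 or 2 was left out.

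**Figure D2:**
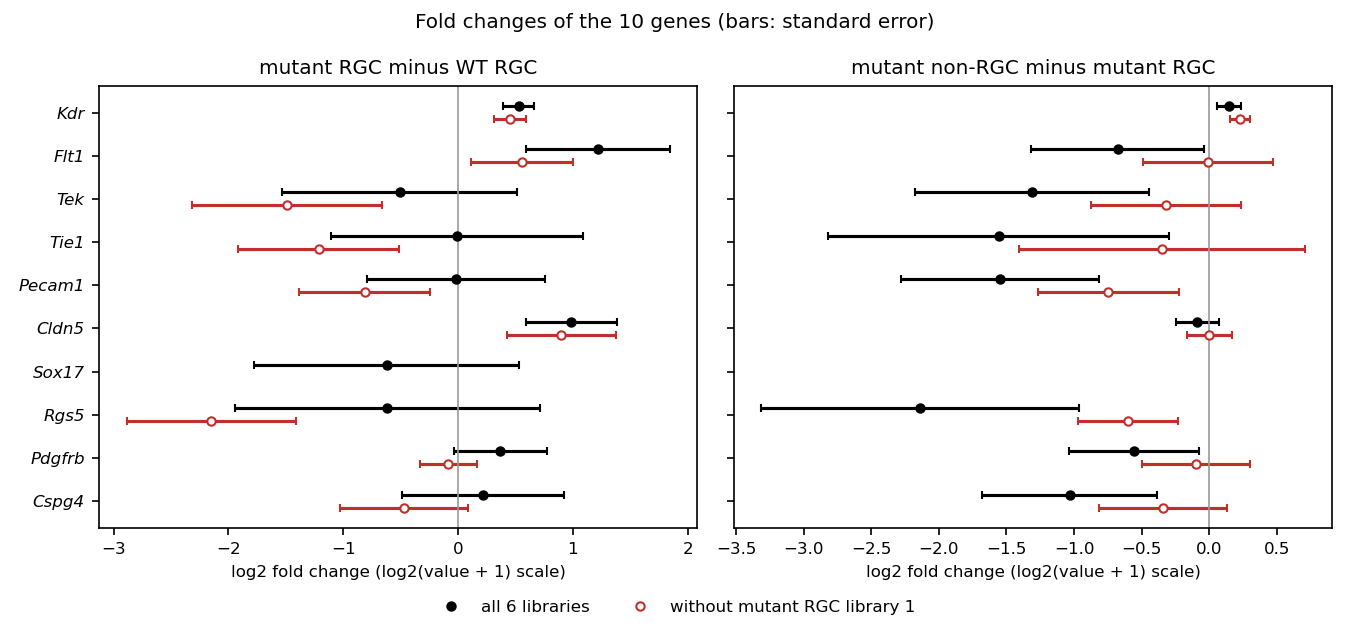
Log2 fold changes of the 10 genes on the log2(value + 1) scale (horizontal axis) for mutant RGC minus WT RGC and for mutant non-RGC minus mutant RGC, with all 6 libraries (filled) and without mutant RGC library 1 (open); bars are the standard error. Kdr has the narrowest bars, leaving out the library moves Tek, Tie1, Pecam1 and Rgs5 down between genotypes and towards 0 between fractions, and Sox17 is missing where its mean was under 10.

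The spread came from few libraries. Mutant RGC library 1 exceeded the mean of mutant RGC libraries 2 and 3 by 25.0 times for Rgs5, 10.7 times for Tie1, 7.76 times for Tek and 4.96 times for Pecam1, on values with 1 added. The ratio was 4.27 for Cspg4, 4.02 for Flt1 and 2.66 for Pdgfrb, but 1.23 for Cldn5 and 1.22 for Kdr. Thus 7 of 9 members with a mean of at least 10 were at least 2-fold higher in that library, against 5.12% of 15264 genes, and 3 were at least 5-fold higher, against 1.09%. In WT RGC library 2 the same genes were raised less far over WT RGC libraries 1 and 3, by 4.13 times for Tek, 3.99 for Rgs5, 2.96 for Tie1 and 2.82 for Cspg4. Here 6 of 9 members were at least 2-fold higher, against 2.16% of all genes, and Kdr (0.89) and Cldn5 (0.64) were lower. Both libraries are those of their RGC group in which most members were highest, so these counts describe the members and are not tests. In bulk libraries a larger number of vascular cells and more RNA per such cell cannot be told apart.

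**Figure D3:**
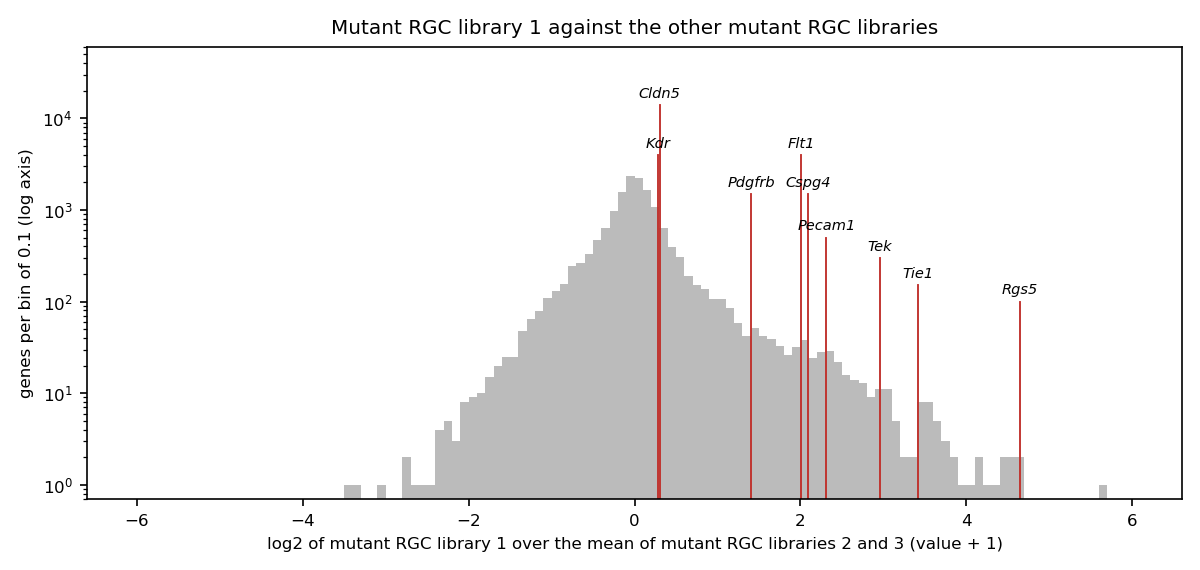
Number of genes (vertical log axis) by the log2 ratio of mutant RGC library 1 to the mean of mutant RGC libraries 2 and 3, on values with 1 added, for the 15264 genes with a mean of at least 10; red lines mark 9 members, their height being set for legibility. Kdr and Cldn5 lie near the centre with ratios of 1.22 and 1.23, and the other 7 lie in the upper tail, up to 25.0 for Rgs5.

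Genes with the most similar profile were looked for among 13679 genes by Pearson correlation over the 9 libraries with the mean of the endothelial members, and the 5 highest were Cdh5, Emcn, Itga1, Nid2 and Cpxm2, with r between 0.97 and 0.98. Cdh5 encodes VE-cadherin and Emcn encodes endomucin, both endothelial surface proteins, and Nid2 encodes a protein of the basal lamina. Cdh5 had 14.4, 66.8 and 28.8 normalised counts in the mutant non-RGC libraries, 484, 20.5 and 52.6 in the mutant RGC libraries and 24.6, 191 and 46.0 in the WT RGC libraries. For the mean of the 3 pericyte members the 5 highest were Ptplad2, Alox5, Ets2, Gpr116 and Il10rb, with r between 0.97 and 0.99. The 9 libraries share groups and scaling, so these values describe likeness and nothing more. Within the members, Kdr and Cldn5 had r of -0.13 and -0.10 with the mean of the other endothelial members, whereas Pecam1, Flt1, Tek, Tie1 and Sox17 had r between 0.62 and 0.91 with it. Against the mean of 10 retinal progenitor markers, a list that includes Sox2 and Fgf15, r was 0.93 for Kdr and 0.87 for Cldn5 over the same 9 libraries. The summed level of those markers was 21924, 22032 and 21880.2 normalised counts in the mutant non-RGC libraries, 18509, 19507 and 19414 in the mutant RGC libraries and 11571, 11686 and 18189 in the WT RGC libraries. WT RGC library 3 is thus the WT library with the highest level of progenitor markers as well as of Kdr and Cldn5. It also had the highest summed proliferation, photoreceptor and amacrine markers of the WT RGC libraries, at 22470, 7073 and 5820 normalised counts. The trait is therefore not particular to progenitor markers, and correlation of the members with these other lists was not computed. Limma called 3 of the 10 progenitor markers higher in mutant RGC than in WT RGC, against 13.7% of all genes. It called 3 higher in mutant non-RGC than in mutant RGC, against 5.07% of all genes, and 0 lower in either comparison. Without mutant RGC library 1 it called 0 of 10 between genotypes and 3 between fractions, against 15% and 22.1% of all genes called in either direction. Limma called 5 of 8 photoreceptor and 4 of 6 amacrine markers higher in mutant RGC, against 13.7% of all genes, and 0 lower. Without mutant RGC library 1 the counts were 3 and 4 higher and 0 lower. The part of progenitor, photoreceptor, amacrine or dividing cell content in the Kdr difference was not tested. The other members also resembled markers of cells outside the vessels. With the mean of the microglia and macrophage markers and with that of the fibroblast and mesenchyme markers, r was 0.78 and 0.78 for Pecam1, 0.69 and 0.83 for Tek, 0.62 and 0.75 for Tie1, 0.62 and 0.65 for Sox17, 0.76 and 0.52 for Rgs5 and 0.63 and 0.81 for Cspg4. For Rgs5 the value with microglia markers was above its 0.72 with the other pericyte members. Pdgfrb had 0.48 and 0.57, Flt1 0.20 and 0.52, Kdr -0.56 and -0.32 and Cldn5 -0.26 and -0.34.

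Other genes of endothelial cells, listed for their known role, followed the members that peaked in 1 library. Of 18 further endothelial surface and secreted genes, 17 were tested and 0 were called in either comparison by limma. Over all genes 26% were called between genotypes and 17.1% between fractions. Of the 18, 17 had their highest level of all 9 libraries in mutant RGC library 1, and 16 were at least 2-fold higher there than in mutant RGC libraries 2 and 3. Their summed level was 1541, 1935 and 2417 normalised counts in the mutant non-RGC libraries, 5329.7, 1477 and 1637 in the mutant RGC libraries and 1425, 2429 and 1762 in the WT RGC libraries. Of 12 transcription factors of endothelial and blood lineages, 0 of 11 tested were called between genotypes, against 26% of all genes, and 1 of 10 between fractions. That gene was Tal1, a regulator of blood and endothelial development, with 3.85, 4.84 and 4.11 normalised counts in the mutant non-RGC libraries and 46.3, 12.1 and 13.6 in the mutant RGC libraries (log2 fold change -2.00, adjusted p = 0.0482, limma). Its mean was under 10 without mutant RGC library 1, and it was not tested then, nor was it called when any of the other 5 libraries was left out. The 1 of 10 stands beside 17.1% of all genes called between fractions. Of the 8 basal lamina genes, which include the collagen IV chains and nidogens of vessel walls, 0 were called in either comparison, against the same 26% and 17.1%.

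Among tip and stalk cell genes, which guide sprouting vessels, Dll4 was higher and Notch4 lower in mutant RGC, with 2 of 7 called, against 26% of all genes. Dll4 encodes a Notch ligand of tip cells that is also expressed in the retina by cells beginning to form neurons. It had 1016, 1093 and 1203 normalised counts in mutant RGC and 416, 415 and 888 in WT RGC (log2 fold change 1.07, SE 0.30, adjusted p = 0.0428, limma). Notch4, an endothelial Notch receptor, had 289.6, 299.6 and 313 in mutant RGC and 408, 423 and 382 in WT RGC (log2 fold change -0.39, SE 0.09, adjusted p = 0.0321, limma). Neither was called without mutant RGC library 1, and both were called without WT RGC library 3. Between fractions 0 of 7 were called, against 17.1% of all genes. WT RGC library 3, with the highest Dll4 of its group, also had the highest summed progenitor, proliferation, photoreceptor and amacrine markers of that group. Their part in the Dll4 difference was not tested.

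Of the ligands and co-receptors of the vascular receptors, 6 of 12 tested were called between genotypes, 3 in each direction, against 26% of all genes, 13.7% higher and 12.3% lower. Angpt2, the ligand that loosens TIE2 signalling, was higher in RGC labelled mutant, with 152, 122 and 123 normalised counts in mutant RGC and 53.1, 64.2 and 67.9 in WT RGC (log2 fold change 1.12, SE 0.18, adjusted p = 0.0238, limma). Pdgfa, a ligand of the related receptor encoded by Pdgfra that ganglion cells release to astrocytes, was lower, with 165, 201 and 225 in mutant RGC and 617, 635 and 398 in WT RGC (log2 fold change -1.42, SE 0.22, adjusted p = 0.0238, limma). Nrp2, a co-receptor for VEGF-C and for semaphorins, was also lower, at 693, 732 and 731 against 1639, 1816 and 1003 (log2 fold change -0.97, SE 0.21, adjusted p = 0.0287, limma). The groups did not overlap for any of these. The other calls, named after their values were seen, were Pdgfc and Pdgfd, which were higher, and Vegfb, which was lower. Vegfa, the ligand of Kdr and Flt1, had 1506, 958 and 1054 normalised counts in mutant RGC and 1161, 1003 and 1375 in WT RGC (log2 fold change 0.01, SE 0.18, adjusted p = 0.973, limma). Without mutant RGC library 1 the calls were Angpt2, which was higher, and Pdgfa and Pdgfb, which were lower. Nrp2, Vegfb, Pdgfc and Pdgfd thus lost their call in that fit. Without WT RGC library 3 the calls were 3 higher, Angpt2, Pdgfc and Pdgfd, and 4 lower, Nrp1, Nrp2, Pdgfa and Vegfb. Pdgfb and Nrp1 are named here after their values were seen. Ganglion cell markers were lower in the same comparison, with 7 of 14 called with all libraries, 12 of 14 without mutant RGC library 1 and 7 of 14 without WT RGC library 3, and 0 were called higher. Proliferation genes were higher, with 15 of 15 called with all libraries, 6 of 15 without mutant RGC library 1 and 15 of 15 without WT RGC library 3. Over all genes more were called without WT RGC library 3 than with all libraries, and fewer without mutant RGC library 1. The part of the shifts in ganglion cell markers and proliferation genes in the differences of the ligands and co-receptors was not tested.

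Between the fractions 4 of the 12 were called, all lower in mutant non-RGC than in mutant RGC, against 17.1% of all genes and 12% lower. Nrp2 had 191, 218 and 283 normalised counts in mutant non-RGC and 693, 732 and 731 in mutant RGC (log2 fold change -1.65, SE 0.14, adjusted p = 0.00424, limma). Nrp1, the co-receptor of Kdr and a semaphorin receptor of growing axons, had 531, 617 and 627 in mutant non-RGC and 1276, 1081 and 1022 in mutant RGC (log2 fold change -0.93, SE 0.10, adjusted p = 0.00614, limma). Pdgfa was lower too (log2 fold change -1.07, adjusted p = 0.0132, limma), as was Pdgfb, the ligand of Pdgfrb (log2 fold change -1.98, adjusted p = 0.0234, limma), named after its value was seen. Without mutant non-RGC library 3 the calls were Nrp1, Nrp2 and Pdgfa, and over the 6 fits with 1 library left out Nrp1 and Nrp2 were called in all. The ganglion cell markers fell as well in this comparison, with 8 of 14 called lower and 0 higher, and their part in these differences was not tested.

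In the Norrin and Wnt pathway, through which retinal cells direct vessel growth and barrier formation, 4 of 9 genes were called between genotypes, 2 in each direction, against 26% of all genes, 13.7% higher and 12.3% lower. Tspan12, an auxiliary subunit of the Norrin receptor, was lower in mutant RGC (log2 fold change -0.65, SE 0.12, adjusted p = 0.0244, limma) and also lower in mutant non-RGC than in mutant RGC (log2 fold change -0.68, SE 0.12, adjusted p = 0.0130, limma). Lrp5, its co-receptor, was higher in mutant RGC (log2 fold change 0.63, SE 0.14, adjusted p = 0.0293, limma). Axin2, a Wnt target, was lower (log2 fold change -0.32, SE 0.08, adjusted p = 0.0354, limma), and Lef1, a Wnt effector named after its value was seen, was higher (log2 fold change 0.86, adjusted p = 0.0466, limma). Without mutant RGC library 1 the calls between genotypes were 0 higher and 1 lower of the 9, and without WT RGC library 3 they were again 2 and 2. Between fractions Tspan12 was the only 1 of the 9 called, against 17.1% of all genes, and it was not called without mutant RGC library 2 or 3. Of the barrier genes, Tjp1, which encodes the junction protein ZO-1 of many epithelia and endothelia, was higher in mutant RGC (log2 fold change 0.60, SE 0.06, adjusted p = 0.0199, limma). It was the only 1 of 8 tested that was called with all libraries, against 13.7% of all genes called higher. Without WT RGC library 3, where more of all genes were called as well, 4 of 8 were called.

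Of 16 further pericyte and mural genes, 14 were tested and 2 were higher in mutant RGC than in WT RGC, both of which encode mitochondrial proteins, against 13.7% of all genes called higher. Ndufa4l2 had 940.1, 840.0 and 866 normalised counts in mutant RGC and 411, 390.5 and 654 in WT RGC (log2 fold change 0.93, SE 0.20, adjusted p = 0.0274, limma). Cox4i2 had 393, 424 and 384 in mutant RGC and 153, 137 and 300.2 in WT RGC (log2 fold change 1.15, SE 0.29, adjusted p = 0.0361, limma), and it was also higher in mutant non-RGC than in mutant RGC (log2 fold change 0.35, adjusted p = 0.0333, limma), a call that was lost in 5 of the 6 fits with 1 library left out. Among the WT RGC libraries, Ndufa4l2 and Cox4i2 were highest in library 3 and lowest in library 2. The summed progenitor, proliferation, photoreceptor and amacrine markers were also highest in library 3. The part of the content of such cells in these 2 differences was not tested. Of the 14, 0 were called between genotypes by limma without mutant RGC library 1. Without WT RGC library 3, where more of all genes were called as well, 4 were called higher. Abcc9 and Kcnj8, which encode the potassium channel of pericytes, had their highest levels in mutant RGC library 1 and WT RGC library 2. Abcc9 had 4.81, 22.3 and 6.17 normalised counts in the mutant non-RGC libraries, 219, 11.2 and 24.3 in the mutant RGC libraries and 68.8, 142 and 25.2 in the WT RGC libraries. Kcnj8 was read in 8 of the 9 libraries and reached 76.8 in mutant RGC library 1 and 66.3 in WT RGC library 2. Among 8 hypoxia-responsive genes, 2 were called higher in mutant RGC, against 13.7% of all genes. The 2 were Egln3 (log2 fold change 1.25, SE 0.20, adjusted p = 0.0238, limma) and Car9 (log2 fold change 1.16, SE 0.34, adjusted p = 0.0488, limma). Between fractions 0 of the 8 were called, against 17.1% of all genes. Of these 8, Egln3 alone was called between genotypes without mutant RGC library 1, and Egln3 and Ndrg1 were called without WT RGC library 3. Car9 was called in none of the fits with 1 library left out. It rested on few reads, 21, 23 and 12 in the mutant RGC libraries and 8, 6 and 7 in the WT RGC libraries.

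The microglia, fibroblast and erythroid marker lists were also highest within the mutant RGC group in library 1, but among the WT RGC libraries they followed the vascular members unevenly. All 15 microglia and macrophage markers had their highest level in mutant RGC library 1. Their summed level was 211, 219.8 and 149 normalised counts in the mutant non-RGC libraries, 9487, 2396 and 2208 in the mutant RGC libraries and 3484, 5516 and 5088 in the WT RGC libraries. Among the WT RGC libraries, Cx3cr1, P2ry12, C1qb and Trem2 were highest in library 3, and Csf1r, Itgam and Mrc1 in library 2. Limma called 14 of the 15 microglia and macrophage markers lower in mutant non-RGC than in mutant RGC, against 12% of all genes. In that comparison 0 of the 9 vascular members were called. P2ry12 and Trem2, defining genes of microglia, were at 0 in 2 of the 3 mutant non-RGC libraries, while all 10 vascular members had reads in all 9 libraries. The fibroblast and mesenchyme markers, which include Col1a1 and Dcn, summed to 1088, 7767 and 1678 normalised counts in the mutant non-RGC libraries, 8491, 1096 and 4556 in the mutant RGC libraries and 5774, 17148 and 819.6 in the WT RGC libraries. They peaked in mutant RGC library 1, WT RGC library 2 and mutant non-RGC library 2. The erythroid markers summed to between 79.8 and 209 normalised counts in mutant non-RGC, 70.9 and 319 in mutant RGC and 125 and 139 in WT RGC. Of 5 tested, 0 were called in either comparison, against 26% of all genes between genotypes and 17.1% between fractions. The part of fibroblast, microglial or blood cell content in the vascular values was not tested.

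**Figure D4:**
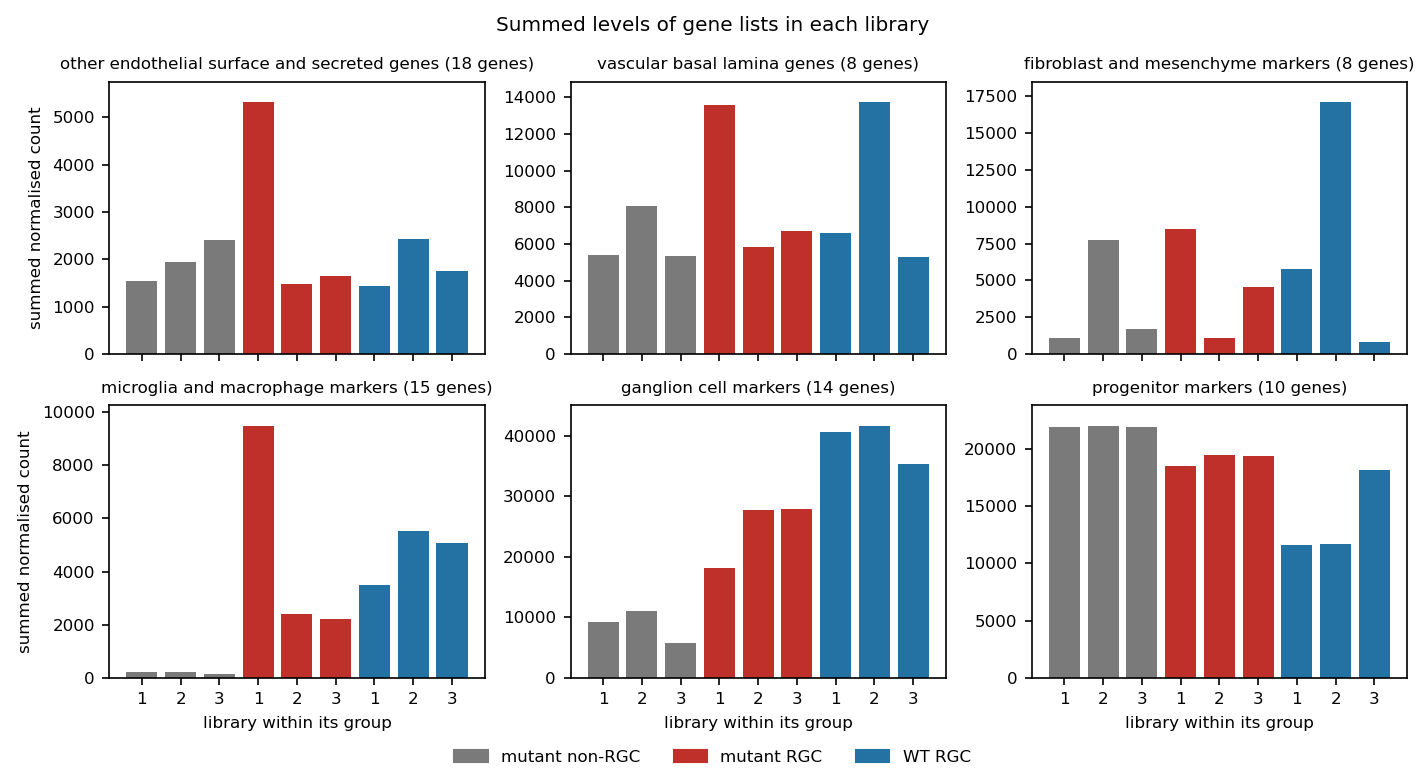
Summed normalised counts (vertical axis, from 0, own range in each panel) of 6 gene lists in the mutant non-RGC (grey), mutant RGC (red) and WT RGC (blue) libraries 1 to 3. The other endothelial genes reach 5329.7 in mutant RGC library 1 and at most 2429 elsewhere, the basal lamina and fibroblast lists are high in mutant RGC library 1 and WT RGC library 2, microglia markers are near 0 in mutant non-RGC, and progenitor markers are lowest in WT RGC libraries 1 and 2.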

How the data were processed

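Poly(A) RNA of 18 samples was sequenced as single reads of 75 cycles. The 2 tables used here cover 9 of these libraries, and 12 ChIP and input samples were not analysed here. Per the submitters' processing notes, STAR 2.3, featureCounts, DESeq and FastQC were used on mm10, and the table names mention sorting, primary alignments and removed duplicates. No strand setting was found in these sources. Per the file headers, the deposited values are the mean normalised count of each condition (gene counts divided by the authors' size factors), the fold change as a ratio of condition B to condition A, its log2 value, the authors' p-value and their adjusted p-value.

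Whole reads per library were recovered from the deposited condition means: each mean is a sum of 3 whole counts, each divided by 3 times a size factor, and a solution was taken within 1e-09 of a whole number provided that the next best solution was over 10 times as far from whole. Between 99.975% and 100.0% of genes above 0 met this, and the mutant RGC counts were identical from both tables in 23953 genes. The abundant genes with several solutions in WT (Ank2, Kif1b, Reln, Adcy1, Map1b and Dync1h1) were left out. Which condition is which was read from the table names and from 14765 genes at 0 in mutant RGC in both tables with 0 mismatches.

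Levels printed per library are recovered reads on a median-of-ratios scale over all 9 libraries. Tests used the authors' size factors within each table, genes with a mean of at least 10, log2(value + 1) and trended limma (version 3.58.1, R 4.3.3), and the threshold was an adjusted p of 0.05 by Benjamini-Hochberg over all genes tested. Fold changes on this scale understate those of low genes. The procedure was tested on simulated data with the same fixed spread for every gene and no library standing apart. That test cannot show how the procedure behaves on libraries that stand apart, as some do here. Alternatives were a pseudocount of 0.5, no filter, a mean of at least 50, upper-quartile and total-count scaling, robust variance, voom, the authors' DESeq result, 1 fit over 9 libraries, and each library left out.

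Beyond the 10 members, Thy1, Ezh2 and Ehmt2, genes were named as the 3 with the smallest adjusted p per list and comparison and the 5 most like each subset; other names are marked or illustrate a list. Lists were chosen from known roles. The members and lists were chosen with earlier results of these data known. Promoters come from RefSeq (GRCm38.p6), and gene positions from the same assembly.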

Additional observations from a re-analysis of the deposited data

How the results depend on the processing

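Kdr was the member called between genotypes under every alternative that kept all 6 libraries, and 0 members were called between fractions under any. The count of members called between genotypes ranged from 0 to 2 when 1 library was left out: 0 without any of the 3 mutant RGC libraries or WT RGC library 1 or 2, and 2, Kdr and Cldn5, without WT RGC library 3. The count of all genes called between genotypes ranged from 3 to 6478, with 2284, 3 and 9 without mutant RGC libraries 1, 2 and 3, and 9, 8 and 6478 without WT RGC libraries 1, 2 and 3. Between fractions it ranged from 438 to 3325, with 438, 1243 and 2696 without mutant non-RGC libraries 1, 2 and 3, and 3325, 595 and 621 without mutant RGC libraries 1, 2 and 3. With all 6 libraries 3971 genes were called between genotypes and 2590 between fractions, so leaving out 1 library gave fewer calls in some fits and more in others. The cause was not tested. The authors' DESeq result called 1635 genes between fractions, against 2590 by limma. Total-count scaling split the fraction calls into 1465 higher and 1598 lower, against 770 and 1820.

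Signs between genotypes that turned were 0.025 for Pecam1 and 0.036 for Tie1 under total-count scaling, 0.0067 for Tie1 under voom, and, in the authors' deposited table, 0.34 for Pecam1, 0.88 for Tie1, 0.24 for Sox17 and 0.58 for Rgs5, none past a threshold. With 1 library left out, log2 fold changes between genotypes ranged from -0.81 to 0.67 for Pecam1, -1.49 to 0.23 for Tek, -1.21 to 1.02 for Tie1, -0.96 to 0.26 for Sox17, -2.15 to 0.23 for Rgs5, -0.084 to 0.61 for Pdgfrb and -0.47 to 0.73 for Cspg4, and between fractions from -0.24 to 0.037 for Cldn5. The cause was not tested. No paired analysis was possible because the recovered libraries carry no replicate numbers.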
